A study of Mus musculus with 17 samples.

Results

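The TNF and TNF receptor superfamily was followed through the RNA of mouse skin innate lymphoid cells (ILCs), tissue lymphocytes that lack rearranged antigen receptors. Members were taken by gene symbol: every symbol that starts with Tnfsf or Tnfrsf and a digit, with Tnf, Lta, Ltb, Cd40lg, Cd40, Cd70, Cd27 and Fas. The rule found 40 of the 54446 gene models in the bulk count files, and the same 40 were listed in each of the 3 single-cell count files. They were 16 ligands, 5 receptors with a death domain, 14 receptors without one, 4 decoy or soluble receptors and 1 antisense RNA. No measured value entered this rule, though it was set with earlier results of these data known.

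All libraries came from the C57BL/6 background, and the cells were sorted as live CD90-positive cells without lineage markers or a γδ T cell receptor. Fate-map (fm) mice carry a permanent mark in cells that once used the gene driving it. Marked cells from mice labelled Gata3flox (fm_pos_Gata3flox, n = 3) and from mice without that label (fm_pos, n = 2) were sequenced beside unmarked cells of the same kinds of mice (fm_neg_Gata3flox, n = 3, and fm_neg, n = 2). The tamoxifen libraries came from Gata3fl/fl CreERT2 mice (Gata3KO_tamoxifen, n = 2), in which a Cre enzyme that tamoxifen switches on can delete Gata3, and from WT mice (WT_tamoxifen, n = 2). Every mouse of this pair of groups received 3 injections of 5 mg tamoxifen. The labels give no promoter for the CreERT2 and no age of the mice, and do not say whether unmarked cells of Gata3flox mice had lost the allele. Single cells came from skin (sc_skin_ILC) and from dorsal skin on day 10 (sc_dorsal_day10) and day 0 (sc_dorsal_day0) after hair removal, with 1 library each. Nothing in the labels tells whether replicates came from different mice, and p-values therefore cover the spread among libraries, which may be technical.

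Bulk libraries held 14450612 to 44098274 counts. Gata3, the targeted gene, had 154, 235 and 307 CPM (read counts scaled to the library size) in fm_pos_Gata3flox and 164 and 303 CPM in fm_pos, and 264, 430.3 and 442 CPM in fm_neg_Gata3flox and 381 and 504 CPM in fm_neg. It had 299 and 314 CPM in Gata3KO_tamoxifen and 381 and 581 CPM in WT_tamoxifen. It was thus detected in every library, and passed the test in none of the 6 comparisons (adjusted p from 0.23 to 1 by edgeR with Benjamini-Hochberg adjustment). Counts are over the whole gene, so a deleted part of it cannot be told apart, and the groups are called by their labels. The sorted cells carried the ILC2 marker list in every group, at a summed 2577 to 9101 CPM. It was 2577 to 3980 CPM in fm_pos_Gata3flox, 4068 to 6459 in fm_pos, 4591 to 7383 in fm_neg_Gata3flox and 6125 to 6465 in fm_neg. Summed ILC3 and type 17 markers separated marked from unmarked cells, with 4796 to 6353 CPM in fm_pos_Gata3flox and 4735 to 4821 in fm_pos. They summed to 1856 to 3466 CPM in fm_neg_Gata3flox and 1847 to 3116 in fm_neg. The part of these lists in the results below was not tested. The summed fibroblast list was 104 to 1244 CPM in the other 3 fate-map groups and 7340 to 9173 CPM in fm_neg, and the keratinocyte list was 368 to 749 CPM in the others and 2585 to 4565 CPM in fm_neg. The T cell list was present throughout, at 1703 to 3107 CPM in the fate-map libraries. In bulk RNA, fewer cells of a type and less RNA per cell cannot be told apart.

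Members of the family work as pairs of trimeric ligands and receptors on neighbouring cells. Receptors with a death domain, such as Fas and TNFR1 (Tnfrsf1a), can start cell death, and the others bind TRAF adaptors and lead to NF-κB and MAP kinase signalling. Decoy and soluble receptors bind a ligand without passing on a death signal. In lymphocytes the costimulatory pairs OX40L-OX40 (Tnfsf4 and Tnfrsf4), 4-1BBL-4-1BB (Tnfsf9 and Tnfrsf9) and GITRL-GITR (Tnfsf18 and Tnfrsf18) prolong activation and survival. ILC2s are known to present OX40L to T cells, and lymphotoxins (Lta, Ltb) from ILC3-like cells organise lymphoid tissue.

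Levels between members were compared per kilobase of the deposited gene length. The highest mean over the 10 fate-map libraries belonged to Tnfrsf18, which encodes the costimulatory receptor GITR, at 646 ± 185 CPM per kb (SD). Tnfsf9, for 4-1BB ligand, followed at 479 ± 264 CPM per kb. Ltb, for the membrane anchor of lymphotoxin, had 220 ± 60.1 CPM per kb, and Tnfrsf4, for OX40, had 162 ± 120 CPM per kb. The next were Cd27, Fas, Tnfrsf9, Tnf, Tnfrsf1b and Tnfrsf25, with means between 138 and 76.0 CPM per kb. The SDs of neighbours in this order overlapped. In the 4 tamoxifen libraries Tnfrsf18 (840 CPM per kb), Tnfsf9 (336), Ltb (273) and Tnfrsf4 (258) held the same first ranks.

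At the other end, Tnfsf13 had 0 counts in all 14 bulk libraries. Its gene model lies beside Tnfsf12 on chromosome 11 and overlaps the antisense Tnfsf13os, so counts there are uncertain. Tnfrsf8, Tnfrsf17, Tnfsf13 and Tnfsf13os did not pass the filter on low counts in the fate-map libraries, which left 36 members tested, and 33 passed in the tamoxifen libraries. A member that passed through the group in which it was high was favoured by this filter.

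Of the 40 members, 20 lay in 8 clusters of neighbouring genes with gaps under 100 kb. Ltb, Tnf and Lta were neighbours on chromosome 17, as were Tnfsf9, Cd70 and Tnfsf14. Tnfrsf4 and Tnfrsf18 were 9.55 kb apart on chromosome 4. Tnfrsf26, Tnfrsf22 and Tnfrsf23 on chromosome 7 are close paralogs, so reads shared between them make their single counts uncertain.

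The promoters of the 3 costimulatory receptors of chromosome 4 are shown because these genes were among the 10 highest and Tnfrsf4 moved where its neighbour Tnfrsf18 was not called. Each line is RefSeq sequence of GRCm38.p6, plus strand, from 250 bases before to 50 bases after the annotated start. Capitals mark matches on either strand to the GATA motif (AGATAA or TGATAA), the AP-1 motif (TGANTCA) and the NF-κB consensus. The windows are chr4:156013445-156013744 for Tnfrsf4, chr4:156026072-156026371 for Tnfrsf18 and chr4:150927749-150928048 for the downstream start of Tnfrsf9, and the deposited Tnfrsf4 model begins downstream of its window.
Tnfrsf4: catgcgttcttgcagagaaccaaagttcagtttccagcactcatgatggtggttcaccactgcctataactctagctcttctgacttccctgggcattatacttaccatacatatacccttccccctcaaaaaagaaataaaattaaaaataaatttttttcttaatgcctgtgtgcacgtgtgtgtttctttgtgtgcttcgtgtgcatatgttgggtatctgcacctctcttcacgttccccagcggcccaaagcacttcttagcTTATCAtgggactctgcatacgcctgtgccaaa
Tnfrsf18: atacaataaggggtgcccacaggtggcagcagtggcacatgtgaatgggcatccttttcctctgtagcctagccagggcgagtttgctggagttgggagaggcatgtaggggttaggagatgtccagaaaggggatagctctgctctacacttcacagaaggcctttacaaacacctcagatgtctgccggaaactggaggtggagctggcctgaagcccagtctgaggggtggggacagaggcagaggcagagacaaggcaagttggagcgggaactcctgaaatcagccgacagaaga
Tnfrsf9: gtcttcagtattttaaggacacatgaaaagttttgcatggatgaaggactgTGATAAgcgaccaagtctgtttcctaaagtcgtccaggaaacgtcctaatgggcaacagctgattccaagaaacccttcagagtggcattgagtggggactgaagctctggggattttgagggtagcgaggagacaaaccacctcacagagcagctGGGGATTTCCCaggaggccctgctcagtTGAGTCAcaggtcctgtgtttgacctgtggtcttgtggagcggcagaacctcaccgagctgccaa

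Tnfrsf4 held a GATA match on the minus strand, 18 bases into the annotated transcript. In Tnfrsf9 a GATA match began 199 bases before the start, an AP-1 match 15 bases before it and overlapping NF-κB matches 43 and 42 bases before it. No match lay in the Tnfrsf18 window, nor in that of the upstream Tnfrsf9 start (chr4:150919905-150920204), which is not printed. Of all 32851 RefSeq promoters of this length, 18.6% held the GATA motif, 7.81% the AP-1 motif and 4.51% the NF-κB consensus. RefSeq gave 33 promoters for 29 of the members, and 3, 7 and 3 of these held the motifs in that order. A match is a stretch of letters and does not show binding.

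**Figure D1:**
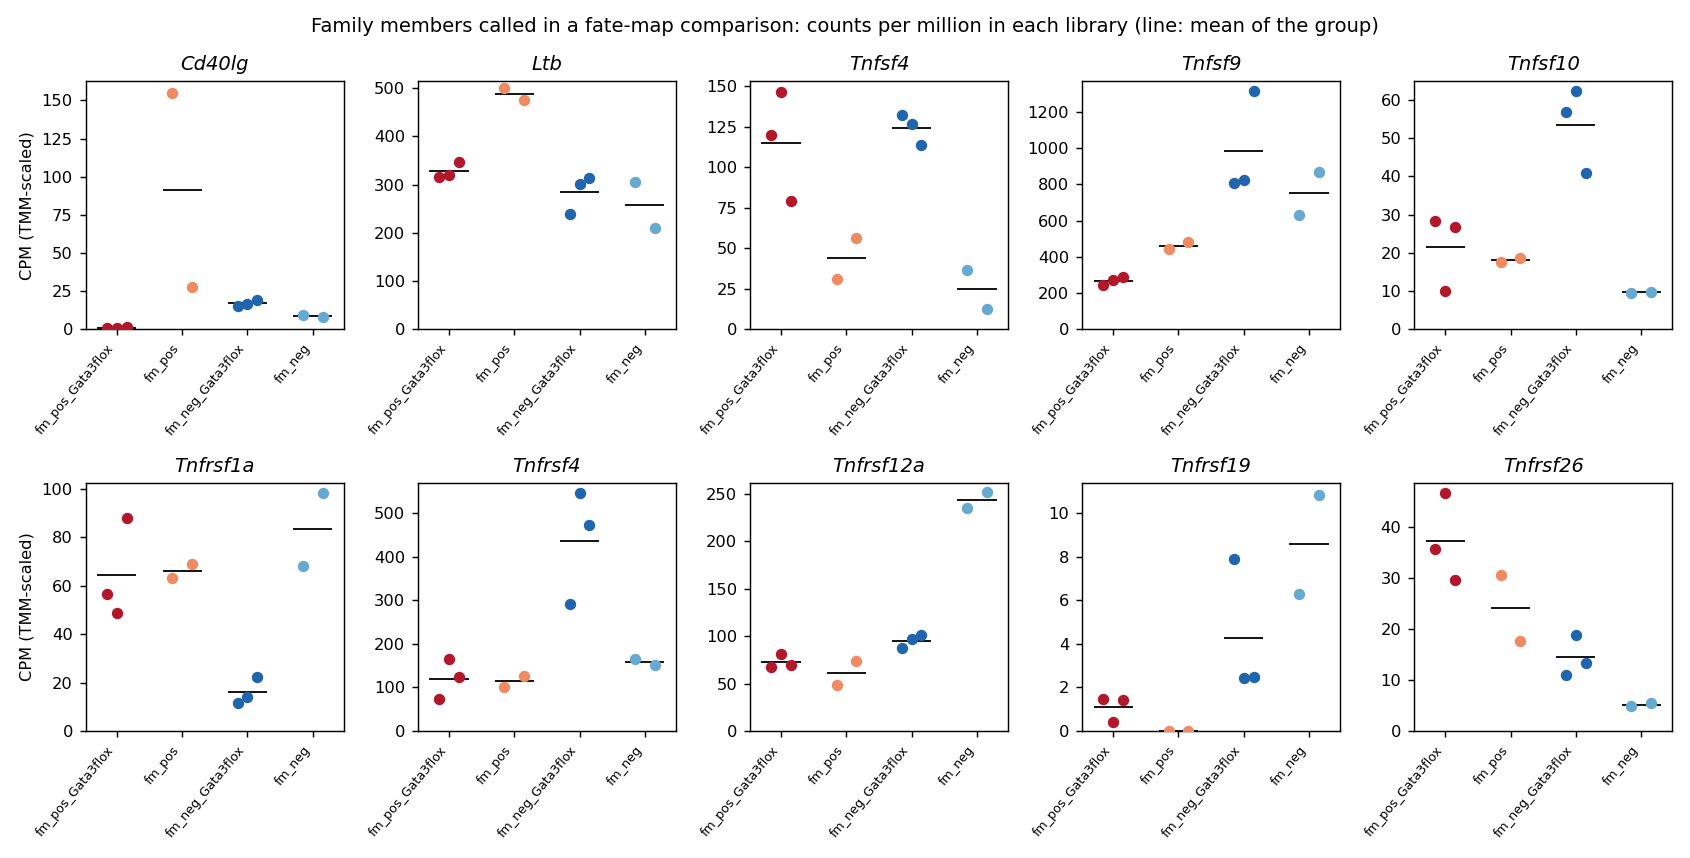
Each point is the TMM-scaled CPM of a member in a fate-map library, with groups from left to right fm_pos_Gata3flox, fm_pos, fm_neg_Gata3flox and fm_neg and a line at the group mean. The 10 members called in at least 1 fate-map comparison are shown: Cd40lg lies near 0 in all 3 fm_pos_Gata3flox libraries, Tnfrsf1a is low in fm_neg_Gata3flox, and Tnfrsf12a is high in fm_neg.

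Marked against unmarked cells of mice without the Gata3flox label asked how reporter-positive cells differ. Among 36 tested members, 3 were higher and 2 lower in fm_pos, where 2.74% of all 17456 genes tested were called (0.624% higher and 2.11% lower). The higher members were the ligands Cd40lg and Ltb and the receptor Tnfrsf26, and the lower ones were Tnfrsf12a and Tnfrsf19. The median log2 fold change was 0.11 over the members and 0.00 over all genes.

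Cd40lg (chrX:57212143-57224042), which encodes the ligand that activates CD40 on B cells and myeloid cells, had 155 and 27.9 CPM in fm_pos, against 9.32 and 8.34 CPM in fm_neg. The groups did not overlap, but the fm_pos libraries differed widely from each other. The log2 fold change was 3.37 ± 0.70 (SE) (adjusted p = 0.0362, edgeR), and without fm_pos replicate 1 it was 1.665 (adjusted p = 0.2). T cell transcripts differed in how they followed Cd40lg. Trac had 237 and 55.7 CPM in fm_pos, against 29.0 and 33.3 CPM in fm_neg, whereas Cd3e had 55.3 and 11.2 CPM in fm_pos, against 62.3 and 42.1 CPM in fm_neg, and Cd3g had 813 and 206 CPM in fm_pos, against 473 and 422 CPM in fm_neg. Each of these was higher in fm_pos replicate 1 than in replicate 2, and for Cd3e and Cd3g replicate 2 lay below both fm_neg libraries. The whole T cell list, with all of its 9 genes but Cd5 detected, summed to 1933 to 3107 CPM in fm_pos and 1703 to 2033 CPM in fm_neg, and its part in the result was not tested. Ltb had 500.1 and 476 CPM in fm_pos and 306 and 211 CPM in fm_neg, a log2 fold change of 0.92 ± 0.21 (SE) that stood close to the threshold (adjusted p = 0.0496, edgeR). Tnfrsf26, a mouse receptor encoded beside the TRAIL decoy receptors, had 30.5 and 17.7 CPM in fm_pos and 4.82 and 5.49 CPM in fm_neg (log2 fold change 2.22 ± 0.47 (SE), adjusted p = 0.0362, edgeR).

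Tnfrsf12a encodes Fn14, the receptor of the ligand TWEAK and a gene that injured epithelium and mesenchyme induce. It had 48.5 and 74.3 CPM in fm_pos, against 235 and 251 CPM in fm_neg, with no overlap, and the log2 fold change was −1.98 ± 0.24 (SE) (adjusted p = 0.00311, edgeR). Tnfrsf19, for the receptor TROY known from hair follicle epithelium, had 0 counts in both fm_pos libraries, against 6.31 and 10.8 CPM in fm_neg. This made it at least 191-fold lower, against a floor of 3 counts over the group (adjusted p = 0.0207, edgeR). The fibroblast list moved with these receptors: it summed to 104 to 228 CPM in fm_pos, with up to 3 of its 8 genes at 0, and to 7340 to 9173 CPM in fm_neg, with none at 0. The keratinocyte list summed to 368 to 447 CPM in fm_pos and 2585 to 4565 CPM in fm_neg. With fm_neg_Gata3flox as the negative side in its place, a setting chosen after seeing the data, Tnfrsf19 was the 1 of the 5 members still called (adjusted p = 0.0269, edgeR). That setting also called Tnfrsf1a, Tnfrsf4 and Tnfsf9, which were not called against fm_neg. Tnfrsf12a then had a log2 fold change of −0.63 (adjusted p = 0.136), Tnfrsf26 of 0.74 (0.302), Cd40lg of 2.41 (0.0551) and Ltb of 0.78 (0.0516). Tnfrsf12a and Tnfrsf19 passed without each of the 4 libraries in turn, while Cd40lg and Tnfrsf26 lost their calls when fm_pos replicate 1 or an fm_neg replicate was left out (adjusted p up to 0.2 and 0.105), and Ltb without either fm_pos replicate or fm_neg replicate 2 (up to 0.154). With lane in the fit Cd40lg, Tnfrsf26 and Ltb were not called (adjusted p = 0.0983, 0.121 and 0.122), with log2 fold changes of 3.35, 2.06 and 0.79, and RLE factors ended the call of Ltb (0.0631). With the libraries of both groups alone none of the 5 passed, Tnfrsf12a and Tnfrsf19 included (adjusted p = 0.167 and 0.246, edgeR). The replicate block also ended the call of Tnfrsf19 (0.0931).

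**Figure D2:**
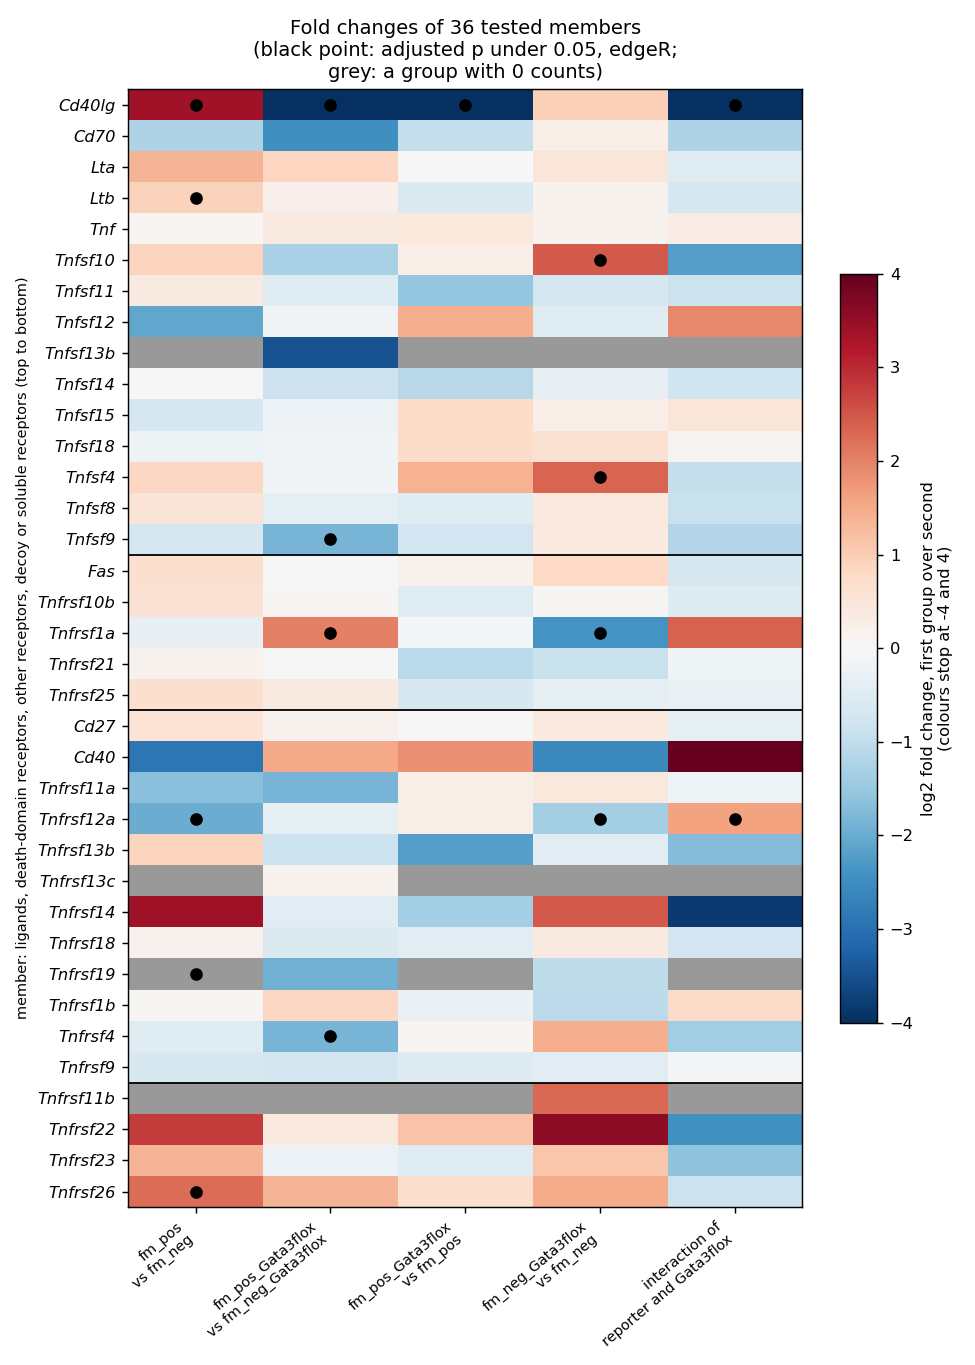
Colours give the edgeR log2 fold change of the 36 tested members (rows, by role) in 5 fate-map comparisons (columns), the first-named group over the second, with black points at adjusted p under 0.05. Grey cells have a group with 0 counts, where a fitted fold change is not meaningful; Cd40lg is the member with points in 4 of the 5 columns.

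In mice labelled Gata3flox, marked and unmarked cells differed in 4 members, 1 higher (Tnfrsf1a) and 3 lower (Tnfsf9, Cd40lg and Tnfrsf4) in fm_pos_Gata3flox, where 0.361% of all genes were called (0.126% higher and 0.235% lower). The members' median log2 fold change was −0.23, against 0.00 over all genes. Of 15 tested ligands, 12 had a negative fold change.

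Tnfsf9 (chr17:57105325-57107757) had 247, 272 and 287 CPM in fm_pos_Gata3flox, against 805, 826 and 1317 CPM in fm_neg_Gata3flox. Every marked library lay below every unmarked one, and the log2 fold change was −1.87 ± 0.21 (SE) (adjusted p = 0.00914, edgeR). Its receptor Tnfrsf9 was also lower without overlap (195, 221 and 215 CPM in fm_pos_Gata3flox and 341, 389 and 318 CPM in fm_neg_Gata3flox). It was not called (log2 fold change −0.73 ± 0.36 (SE), adjusted p = 0.701, edgeR), except with the libraries of both groups alone. Tnfrsf4 (chr4:156013843-156016612), for OX40, had 73.3, 165 and 123 CPM in fm_pos_Gata3flox and 292, 546 and 472 CPM in fm_neg_Gata3flox, again without overlap (log2 fold change −1.86 ± 0.31 (SE), adjusted p = 0.0433, edgeR). Its chromosomal neighbour Tnfrsf18 had 584, 824 and 941 CPM in fm_pos_Gata3flox and 886, 1323 and 1336 CPM in fm_neg_Gata3flox and was not called (log2 fold change −0.59 ± 0.28 (SE)).

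Cd40lg was nearly absent from the marked cells, with 0.679, 1.19 and 1.23 CPM in fm_pos_Gata3flox, against 15.3, 16.9 and 19.4 CPM in fm_neg_Gata3flox (log2 fold change −4.04 ± 0.60 (SE), adjusted p = 0.0283, edgeR). T cell transcripts went different ways in the same libraries. Trac had 73.7, 49.7 and 44.3 CPM in fm_pos_Gata3flox, against 38.0, 32.1 and 37.1 CPM in fm_neg_Gata3flox, whereas Cd3e had 19.6, 5.72 and 1.41 CPM in fm_pos_Gata3flox, against 28.1, 29.9 and 10.4 CPM in fm_neg_Gata3flox. Trdc had 63.0, 29.0 and 17.5 CPM in fm_pos_Gata3flox, against 67.9, 57.2 and 38.1 CPM in fm_neg_Gata3flox. The T cell list summed to 2023 to 2474 CPM in fm_pos_Gata3flox and 1775 to 1926 CPM in fm_neg_Gata3flox, and its part in the Cd40lg result was not tested. Tnfrsf1a (chr6:125349362-125362484), for the death-domain receptor TNFR1 that binds TNF and lymphotoxin alpha, had 56.5, 48.6 and 87.7 CPM in fm_pos_Gata3flox and 11.4, 14.01 and 22.3 CPM in fm_neg_Gata3flox (log2 fold change 2.02 ± 0.33 (SE), adjusted p = 0.0392, edgeR). Tnfrsf1b, for the other TNF receptor, which lacks a death domain, had 276, 271 and 554 CPM in fm_pos_Gata3flox and 206, 207 and 212 CPM in fm_neg_Gata3flox and was not called (adjusted p = 0.553, edgeR). Tnfsf9 was lost without fm_pos_Gata3flox replicate 2 or 3 (adjusted p up to 0.0675), and Cd40lg, Tnfrsf4 and Tnfrsf1a were lost without each of the 6 libraries (up to 0.134, 0.199 and 0.214). All 3 marked libraries carry lane 2 in their names, and 2 of the 3 unmarked ones lane 1; with lane in the fit none of the 4 members passed (adjusted p from 0.071 to 0.183), while the log2 fold changes were −4.08 for Cd40lg, −2.08 for Tnfrsf4, 2.27 for Tnfrsf1a and −1.59 for Tnfsf9.

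Marked cells with and without the Gata3flox label differed in Cd40lg, the 1 member called, lower in fm_pos_Gata3flox, where 1.52% of all genes were called (1.11% higher and 0.418% lower). Cd40lg had 0.679, 1.19 and 1.23 CPM in fm_pos_Gata3flox, against 155 and 27.9 CPM in fm_pos. The lower fm_pos library was still far above every fm_pos_Gata3flox library, and the log2 fold change was −6.45 ± 0.68 (SE) (adjusted p = 0.0053, edgeR). The call held without each of the 5 libraries in turn (adjusted p up to 0.0268), and the log2 fold change was −4.75 without fm_pos replicate 1 and −7.22 without fm_pos replicate 2. It was lost with the libraries of both groups alone (adjusted p = 0.118), a fit in which edgeR called 0 genes and 2818 had an unadjusted p under 0.05. Trac had 73.7, 49.7 and 44.3 CPM in fm_pos_Gata3flox and 237 and 55.7 CPM in fm_pos, and Cd3e had 19.6, 5.72 and 1.41 CPM in fm_pos_Gata3flox and 55.3 and 11.2 CPM in fm_pos, and their part in the result was not tested.

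The next smallest p belonged to Tnfsf11, for RANKL, a ligand known from bone, lymphoid tissue and mammary epithelium. It had 17.9, 28.2 and 19.9 CPM in fm_pos_Gata3flox and 77.8 and 50.6 CPM in fm_pos and just missed the threshold (log2 fold change −1.54 ± 0.33 (SE), adjusted p = 0.0538, edgeR). Tnfrsf19 had 1.49, 0.432 and 1.44 CPM in fm_pos_Gata3flox and 0 counts in fm_pos and was not called (adjusted p = 0.0552, edgeR). Leaving out fm_pos replicate 2, or genes with a mean under 5 CPM, added Tnfsf11 to the calls, so 2 members passed. The members' median log2 fold change was 0.01, against 0.18 over all genes. The label Gata3flox and the set of files cannot be told apart here, since all Gata3flox files carry another tag in their names than the intact ones.

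Unmarked cells with and without the label differed in 4 members, 2 higher (Tnfsf10 and Tnfsf4) and 2 lower (Tnfrsf1a and Tnfrsf12a) in fm_neg_Gata3flox, where 1.33% of all genes were called (0.596% higher and 0.739% lower). Tnfsf10 encodes TRAIL, the ligand of death receptors, and had 56.8, 62.3 and 40.97 CPM in fm_neg_Gata3flox, against 9.60 and 9.87 CPM in fm_neg (log2 fold change 2.45 ± 0.48 (SE), adjusted p = 0.0467, edgeR). Tnfsf4, for OX40 ligand, had 133, 127 and 114 CPM in fm_neg_Gata3flox, against 36.7 and 12.7 CPM in fm_neg (log2 fold change 2.33 ± 0.47 (SE), adjusted p = 0.0492, edgeR). In neither ligand did the groups overlap.

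Tnfrsf1a had 11.4, 14.01 and 22.3 CPM in fm_neg_Gata3flox and 68.2 and 98.05 CPM in fm_neg (log2 fold change −2.39 ± 0.35 (SE), adjusted p = 0.0217, edgeR). The fm_neg_Gata3flox libraries were thus the low ones of all 4 groups, with fm_pos_Gata3flox and fm_pos near the fm_neg level. Tnfrsf12a had 87.4, 97.04 and 101 CPM in fm_neg_Gata3flox and 235 and 251 CPM in fm_neg (log2 fold change −1.35 ± 0.21 (SE), adjusted p = 0.0219, edgeR). The summed fibroblast list was 582 to 1244 CPM in fm_neg_Gata3flox, against 7340 to 9173 CPM in fm_neg. The ILC1 and NK list moved the other way, with 1338 to 2788 CPM in fm_neg_Gata3flox and 684 to 1313 CPM in fm_neg, as did the list of myeloid and MHC class II genes, with 1339 to 1812 CPM in fm_neg_Gata3flox and 818 to 932 CPM in fm_neg. The part of these lists in the results was not tested. Tnfsf4 and Tnfsf10 were not called with RLE factors (adjusted p = 0.0592 and 0.0527, edgeR) or with lane in the fit (0.0608 and 0.0785). The replicate block ended both calls as well (0.0813 and 0.0924). Tnfsf10 and Tnfrsf12a were lost without each of the 5 libraries (adjusted p up to 0.161 and 0.115). Tnfsf4 was lost without fm_neg replicate 2 or any fm_neg_Gata3flox replicate (up to 0.158), and Tnfrsf1a without fm_neg replicate 2 or fm_neg_Gata3flox replicate 1 or 2 (up to 0.119).

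The difference between the marked-against-unmarked effects of both kinds of mice was tested as an interaction, the effect in Gata3flox mice minus that in intact mice. It was called for 2 of 36 members, 1 higher (Tnfrsf12a) and 1 lower (Cd40lg), where 1.01% of all genes were called (0.825% higher and 0.183% lower). Cd40lg gave −7.41 ± 0.94 (SE) on the log2 scale (adjusted p = 0.00856, edgeR): it was lower in marked cells of Gata3flox mice and higher in marked cells of intact mice. This call held without each of the 10 libraries in turn (adjusted p up to 0.0317), with −5.71 without fm_pos replicate 1, and was lost with the replicate block (adjusted p = 0.0551). Tnfrsf12a gave 1.6 ± 0.3 (SE; adjusted p = 0.0399, edgeR) and was lost without 9 of the 10 libraries in turn (up to 0.114), the exception being fm_pos replicate 2. Tnfrsf1a was not called (2.35 ± 0.51 (SE), adjusted p = 0.0671, edgeR). The members' median was −0.67, against 0.07 over all genes, and 26 of 36 had a negative value.

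Of the 10 members with the highest levels, edgeR called Tnfsf9, Ltb and Tnfrsf4 in a fate-map comparison, and DESeq2, as well as edgeR without the filter on low counts, also called Fas and Tnfrsf1b between fm_neg_Gata3flox and fm_neg. TNF itself was called in no comparison by either tool, with 196, 192 and 179.8 CPM in fm_pos_Gata3flox, 155 and 129 CPM in fm_pos, 144, 140.5 and 159.9 CPM in fm_neg_Gata3flox and 154 and 117 CPM in fm_neg. Lta, for lymphotoxin alpha, had 128, 139 and 155 CPM in fm_pos_Gata3flox, 190.4 and 88.6 CPM in fm_pos, 64.4, 95.9 and 71.3 CPM in fm_neg_Gata3flox and 42.8 and 67.03 CPM in fm_neg. Marked libraries were above unmarked ones of the same kind of mouse in each pair of groups, yet neither difference passed (adjusted p = 0.0921 for fm_pos against fm_neg and 0.459 for the Gata3flox pair, edgeR), though DESeq2 called Lta in fm_pos against fm_neg. Ltb in Gata3flox mice had 316, 319.9 and 346 CPM in fm_pos_Gata3flox and 239, 301 and 314 CPM in fm_neg_Gata3flox.

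The death receptor Fas had 229.6, 293 and 255 CPM in fm_pos_Gata3flox, 193 and 269.9 CPM in fm_pos, 232, 240.2 and 294 CPM in fm_neg_Gata3flox and 151 and 145 CPM in fm_neg. Tnfrsf25, for the death-domain receptor DR3 that drives ILC2s through TL1A, had 127, 142 and 226 CPM in fm_pos_Gata3flox, 224 and 292 CPM in fm_pos, 84.7, 132 and 171 CPM in fm_neg_Gata3flox and 187 and 144 CPM in fm_neg. The TL1A gene Tnfsf15 stayed at or below 2.98 CPM in all fate-map libraries. Tnfrsf10b, for the TRAIL receptor, ranged from 34.96 to 80.97 CPM. Of the 5 death-domain receptors edgeR called Tnfrsf1a alone, and DESeq2 also called Fas, higher in fm_neg_Gata3flox than in fm_neg.

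Cd27, a receptor of resting lymphocytes, had 270.2, 377 and 419.9 CPM in fm_pos_Gata3flox, 322 and 384 CPM in fm_pos, 279, 351 and 321 CPM in fm_neg_Gata3flox and 255 and 225 CPM in fm_neg. Its ligand Cd70 was less even, with 3.01, 12.3 and 16.01 CPM in fm_pos_Gata3flox, 17.5 and 23.3 CPM in fm_pos, 34.4, 63.7 and 74.7 CPM in fm_neg_Gata3flox and 21.6 and 74.4 CPM in fm_neg. In the Gata3flox pair the Cd70 groups did not overlap, but the difference did not pass (log2 fold change −2.46 ± 0.64 (SE), adjusted p = 0.227, edgeR), though DESeq2 called it. Tnfsf8, for CD30 ligand, ranged from 88.1 to 288 CPM over the fate-map libraries, while its receptor Tnfrsf8 had at most 0.354 CPM. Tnfsf14, for LIGHT, ranged from 57.4 to 227 CPM, while Tnfrsf14, a receptor of LIGHT, had at most 5.06 CPM. The sorted cells thus held transcripts of Tnfsf8 and Tnfsf14 while those of Tnfrsf8 and Tnfrsf14 were near 0. The reverse held for Tnfrsf18, whose ligand Tnfsf18 had at most 7.25 CPM. Tnfsf11 reached 77.8 CPM, its receptor Tnfrsf11a 38.4 CPM, and its soluble decoy Tnfrsf11b 1.80 CPM. Cd40, the receptor of Cd40lg, had at most 7.12 CPM.

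The signalling genes of the pathway outside the family were taken as a list of 36 genes, the TRAF adaptors, death-complex, NF-κB and ligand or receptor genes without a family symbol, of which 35 were tested in fate-map libraries. Fasl, the ligand of Fas and a cytotoxic effector of NK and T cells, was the 1 of the 35 called in fm_pos against fm_neg, where 2.74% of all genes were, with 52.5 and 55.3 CPM in fm_pos and 23.0 and 19.5 CPM in fm_neg (log2 fold change 1.34 ± 0.29 (SE), adjusted p = 0.0444, edgeR). Nfkbia, an inhibitor and target of NF-κB, was the 1 of the 35 called in the Gata3flox pair, where 0.361% of all genes were, with 3468, 3732 and 3586 CPM in fm_pos_Gata3flox, against 5308, 5164 and 5905 CPM in fm_neg_Gata3flox (log2 fold change −0.60 ± 0.10 (SE), adjusted p = 0.0346, edgeR). None was called between fm_pos_Gata3flox and fm_pos, where 7 of the 35 and 3333 of all 17456 genes had an unadjusted p under 0.05, a like share.

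In unmarked cells 2 of the 35 were called, both higher in fm_neg_Gata3flox, where 1.33% of all genes were called. Fasl had 109.9, 151 and 105 CPM in fm_neg_Gata3flox, against 23.0 and 19.5 CPM in fm_neg (log2 fold change 2.52 ± 0.29 (SE), adjusted p = 0.00926, edgeR), beside the ILC1 and NK list given above. Rel, an NF-κB subunit of activated lymphocytes, had 573, 819 and 761 CPM in fm_neg_Gata3flox and 369 and 343 CPM in fm_neg (log2 fold change 1.01 ± 0.18 (SE), adjusted p = 0.038, edgeR). Fasl was also the 1 gene of the list with a called interaction (−2.25 ± 0.38, adjusted p = 0.0308, edgeR). The adaptors Traf1 to Traf6 were called in no comparison by edgeR.

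In the tamoxifen libraries none of 33 tested members passed edgeR's test, and none of the 13272 genes did (0% called). At an unadjusted p under 0.05 there were 5 members, where 6.89% of all genes passed. DESeq2 called 2 members, Tnfsf11 and Tnfrsf4, where it called 1.51% of all genes.

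Tnfsf11 had 75.1 and 59.3 CPM in Gata3KO_tamoxifen, against 19.01 and 13.9 CPM in WT_tamoxifen (log2 fold change 2.03 ± 0.35 (SE), adjusted p = 0.585, edgeR). Tnfrsf4 had 249 and 253 CPM in Gata3KO_tamoxifen, against 433 and 474 CPM in WT_tamoxifen (log2 fold change −0.85 ± 0.19 (SE), adjusted p = 0.585, edgeR). The Gata3KO_tamoxifen libraries lay apart from the WT_tamoxifen libraries in both genes. Tnfsf8 had 203 and 239 CPM in Gata3KO_tamoxifen and 324 and 348 CPM in WT_tamoxifen (log2 fold change −0.60 ± 0.20 (SE), adjusted p = 0.612, edgeR). Tnfrsf13b and Tnfrsf13c, receptors of the B cell survival factor BAFF, had 0 counts in Gata3KO_tamoxifen, against 5.35 and 1.69 CPM and 0.644 and 2.75 CPM in WT_tamoxifen. The list of myeloid and MHC class II genes summed to 379 to 448 CPM in Gata3KO_tamoxifen and 1076 to 1241 CPM in WT_tamoxifen, and its part in these values was not tested.

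Cd40lg had 131 and 95.2 CPM in Gata3KO_tamoxifen and 67.2 and 75.1 CPM in WT_tamoxifen, with the T cell list at 2430 to 2452 CPM in Gata3KO_tamoxifen and 1955 to 2501 CPM in WT_tamoxifen (log2 fold change of Cd40lg 0.67 ± 0.27 (SE), adjusted p = 0.739, edgeR). Tnfsf9 had 424 and 507 CPM in Gata3KO_tamoxifen and 347 and 453 CPM in WT_tamoxifen, with overlap. Tnfrsf1a had 35.8 and 37.04 CPM in Gata3KO_tamoxifen and 23.00 and 26.6 CPM in WT_tamoxifen. The members' median log2 fold change was 0.14, against −0.02 over all genes. None of the 31 tested signalling genes was called, and 2 had an unadjusted p under 0.05, a share close to the 6.89% of all genes. Gata3KO_tamoxifen replicate 1 carries lane 4 in its name and the other 3 libraries lane 1.

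**Figure D3:**
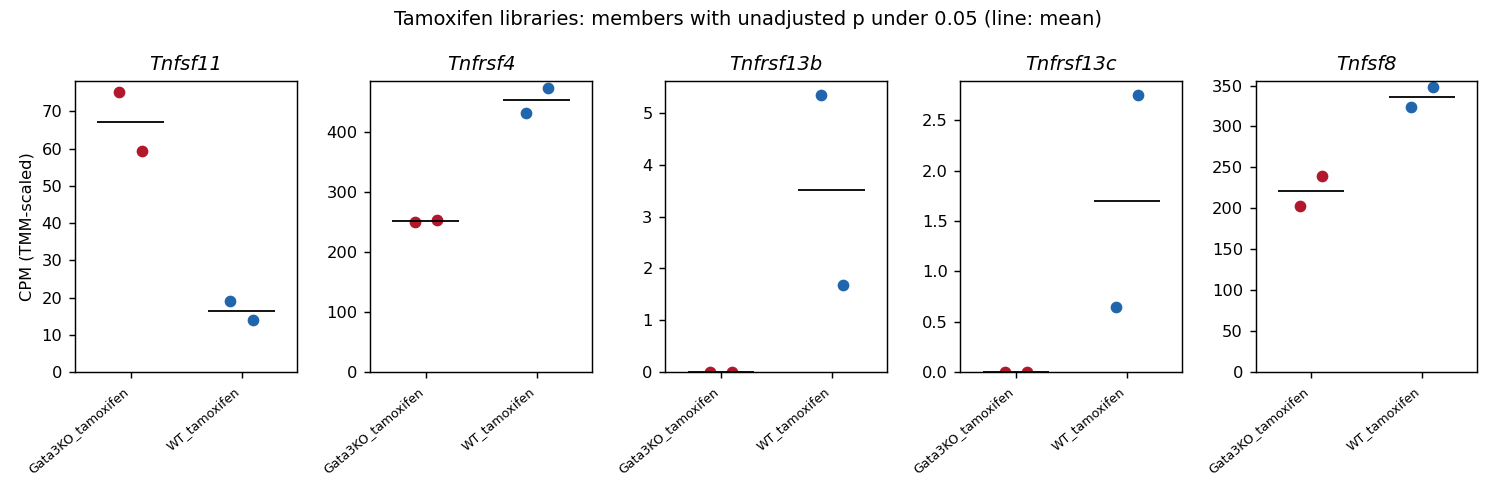
Points are TMM-scaled CPM per library in Gata3KO_tamoxifen (left) and WT_tamoxifen (right), with a line at the mean, for the 5 members with an unadjusted p under 0.05. Tnfsf11 is higher and Tnfrsf4 lower in both Gata3KO_tamoxifen libraries, and no member passed edgeR's adjusted threshold.

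Single cells gave the cell clusters that carried the transcripts. The skin and day 0 libraries shared 4 cell names, and no other pair shared any. The skin library held 4103 cells, which were clustered without the 40 members and described by summed CPM, with no test because there is 1 library. The values below are for the 6 clusters of at least 50 cells, clusters 2 to 7; clusters 0, 1 and 8 held 12, 14 and 42 cells. Cluster 2 was ILC2-like by its markers (Il1rl1, Il5 and Klrg1), and cluster 6 was ILC1- or NK-like (Ccl5, Gzma and Ncr1). Cluster 6 was mixed, since its cycling list summed to 1380 CPM, against 92.8 CPM in the other cells. The type 17 list genes Il22, Il23r, Il1r1, Tmem176a and Tmem176b were also at least 2-fold higher there, as were Cd3d and Cd3e. Cluster 7, with 199 cells, was led by Cd3e, Cd3d, Trdc, Il17a and Il17f, markers of T cells and of type 17 cells, and was left unnamed. Cluster 3 was led by Nfkbid and Nr4a1, cluster 4 by Tff1 and Il1r2, and cluster 5, which had the lowest median count per cell, by the heat shock genes Hspa1a and Hspb1.

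Cd40lg was concentrated in cluster 7, with 129 CPM (95% counting interval 99.1 to 164), against 4.71 CPM in cluster 5 and 0.316 to 1.44 CPM in clusters 2, 3 and 4. In cluster 6 it had 0 counts. Of the 77 Cd40lg counts in the clusters of at least 40 cells, 64 lay in cluster 7. Tnfsf11 had 201 CPM (95% counting interval 164 to 245) in cluster 7 and 129.5 CPM in cluster 6, against 27.3 to 47.9 CPM in clusters 2 to 5. Ltb followed the same order, with 298 CPM in cluster 7 and 211 CPM in cluster 6, against 55.6 CPM in the ILC2-like cluster. Among these 6 clusters Tnfrsf1a was also highest in cluster 7, at 48.3 CPM (95% counting interval 30.9 to 71.8), and had 8.21 CPM in cluster 2, while the 12 cells of cluster 0 gave 5 counts (98.7 CPM, 95% counting interval 32.03 to 230.2). Cd70 was the reverse, with 0 counts in cluster 7 and 36.3 CPM in cluster 2.

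The pair Tnfsf9 and Tnfrsf9 split between the other clusters. Tnfsf9 had 460.2 CPM (95% counting interval 433 to 489) in cluster 3 and 459 CPM in cluster 5, against 65.1 CPM in cluster 2. Tnf was likewise higher there, at 184 CPM in cluster 3 and 356 CPM in cluster 5, against 61.9 CPM in cluster 2. The receptors Tnfrsf9 and Tnfrsf18 ran the other way: Tnfrsf9 had 67.4 CPM in cluster 3 and 19.8 CPM in cluster 5, against 594 CPM (95% counting interval 567 to 621) in cluster 2. Tnfrsf18 had 348 and 177 CPM in these clusters, against 675 CPM (95% counting interval 647 to 704) in cluster 2. Clusters 3 and 5 are those led by immediate early or heat shock genes.

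Tnfsf8 was high in cluster 7 (615 CPM) and in cluster 4 (574 CPM), against 148 CPM in the ILC2-like cluster. Tnfsf4, the ligand that ILC2s show to T cells, had 72.99 CPM in the ILC2-like cluster and 4.02 CPM in cluster 7. Among the 6 clusters Tnfrsf4 ranged from 26.1 CPM in cluster 7 to 83.3 CPM in cluster 3. Tnfrsf1b ranged from 132 CPM in cluster 5 to 658 CPM in cluster 7. Of these clusters Tnfsf14 was highest in cluster 3, at 226 CPM, and Cd27 in cluster 2, at 186 CPM.

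**Figure D4:**
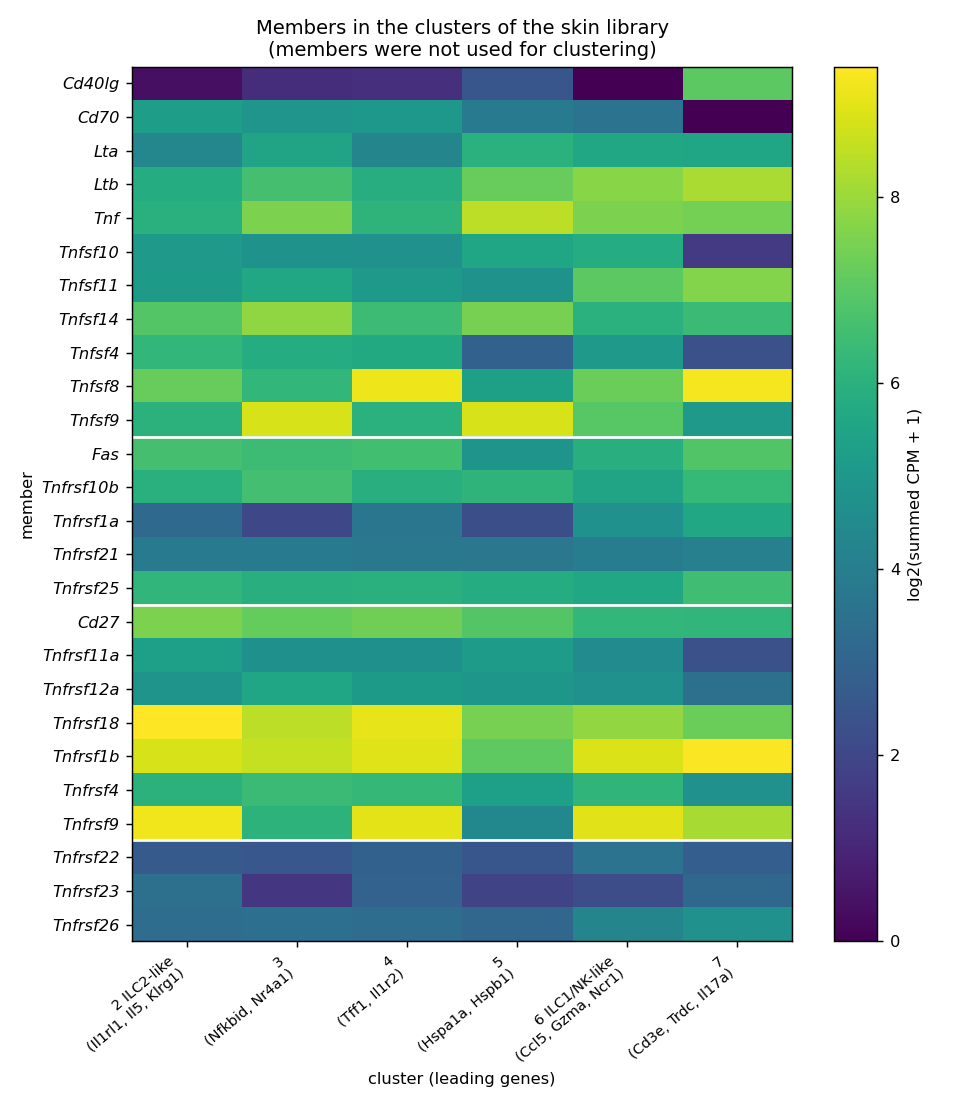
Colour is log2 of the summed CPM plus 1 for the members with at least 50 counts (rows, by role) in the 6 skin clusters of at least 50 cells (columns, with leading genes). Cd40lg is bright in cluster 7 alone among these clusters, and Tnfsf9 is brightest in clusters 3 and 5, where Tnfrsf9 is dark.

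The dorsal libraries held 443 cells on day 10 and 553 on day 0 and were clustered together. Cluster 1 was ILC2-like, cluster 2 was led by Mast4 and by the reporter transcript tdtomato among others, and cluster 3 by Id3, Nfkbid and Egr1. Tnfsf9 had 259 CPM in cluster 3, 125 CPM in cluster 1 and 42.3 CPM in cluster 2, and Tnf had 294, 29.6 and 49.9 CPM in the same order. The cluster with immediate early genes was thus again the one with high Tnfsf9 and Tnf. Tnfrsf1a had 55.4 CPM (95% counting interval 41.2 to 72.8) in cluster 2 and 4.22 CPM in the ILC2-like cluster 1. Tnfrsf4 had 60.5 CPM in cluster 1 and 18.5 CPM in cluster 2, and Cd70 had 52.1 and 15.2 CPM.

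Between days, 22 members had at least 20 summed counts, and 2 differed more than 2-fold, both lower on day 10, where 6.63% of all 7803 genes did. With 1 library per day there is no p-value, and intervals cover counting error only. Tnfrsf1a had 14 counts (16.2 CPM) on day 10 and 53 counts (45.3 CPM) on day 0, a ratio of 0.359 (95% interval 0.184 to 0.656). Tnfsf11 had 13 counts (15.1 CPM) on day 10 and 41 counts (35.0 CPM) on day 0, a ratio of 0.431 (0.212 to 0.82). The share of cells in each cluster differed between the days, with 202 cells of cluster 1 on day 10 and 120 on day 0, and 146 cells of cluster 2 on day 10 and 312 on day 0. Within cluster 2, Tnfrsf1a was 18.3 CPM (5 counts) on day 10 and 71.1 CPM (46 counts) on day 0. Tnfsf11 within cluster 1 was 2.42 CPM (1 count) on day 10 and 43.9 CPM (13 counts) on day 0. Cluster 3, on few counts, went the other way. Tnfrsf1a there was 43.7 CPM on day 10 and 19.8 CPM on day 0, and Tnfsf11 58.3 and 39.5 CPM. In cluster 1, Tnfrsf1a had 3 counts on day 10 and 0 on day 0. Tnfsf11 in cluster 2 was 14.6 CPM on day 10 and 29.4 CPM on day 0. In cluster 0, Tnfrsf1a had 0 and 4 counts and Tnfsf11 0 and 3.

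Cd27 had 133 CPM on day 10 and 247 CPM on day 0, a ratio of 0.54 (0.431 to 0.673) that stayed inside the 2-fold limit. Tnfsf9 had 137 CPM on day 10 and 87.1 CPM on day 0, a ratio of 1.57 (1.19 to 2.07). Tnfsf9 was higher on day 10 in clusters 1 and 2 (164 CPM on day 10 and 70.9 on day 0, and 80.4 on day 10 and 26.3 on day 0) and lower in cluster 3 (160.4 on day 10 and 349 on day 0). The most abundant receptors were close between days: Tnfrsf9 had a ratio of 1.01 (0.886 to 1.16), Tnfrsf18 of 1.14 (1.001 to 1.29) and Tnfrsf1b of 0.806 (0.705 to 0.919). The median log2 ratio was −0.06 over the 22 members and −0.03 over all genes.

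Cells with at least 1 tdtomato count numbered 28 on day 10 and 113 on day 0. On day 0, Tnfrsf1a was 71.0 CPM in cells with tdtomato and 37.6 CPM in cells without it, and Tnfsf9 was 22.4 CPM in cells with it and 106 CPM in cells without it. Tnfrsf4 was 14.96 CPM (4 counts, 4.08 to 38.3) in cells with tdtomato on day 0 and 37.6 CPM (26.1 to 52.6) in cells without it, again with overlap. On day 10 the cells with tdtomato were too few for narrow intervals, with Tnfrsf1a at 64.6 CPM (17.6 to 165) and 12.5 CPM (5.99 to 23.0) in cells without it. Tnfsf9 on day 10 was 96.9 CPM (35.6 to 211) in cells with tdtomato and 140 CPM (115 to 168) in cells without it, with overlap. The labels do not say what tdtomato marks in these libraries.

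**Figure D5:**
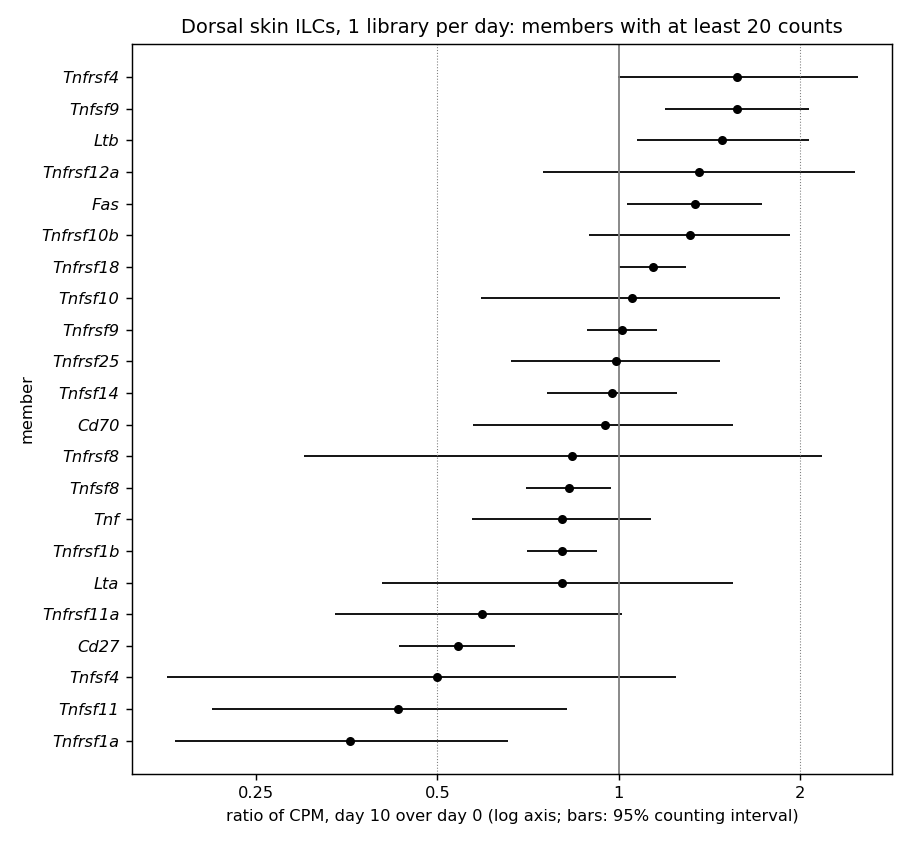
Points are the ratios of CPM on day 10 over day 0 for the 22 members with at least 20 counts (rows), on a log axis, with 95% counting intervals as bars and dotted lines at 2-fold. Tnfrsf1a (0.359) and Tnfsf11 (0.431) lie past the lower line, and the other members lie at or between the lines.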

How the data were processed

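RNA was sequenced from 14 bulk libraries of 6 groups and from 3 libraries of single cells. Reads were aligned to mm10 with HISAT2 2.1.0 and counted per gene with featureCounts from Subread, per the submitters' processing notes. The deposited values are raw counts per gene, and per gene and cell for single cells, with no normalization. The notes do not state whether counting used strand, so a gene and its antisense partner cannot be told apart, nor do the sources used here give the single-cell platform.

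The members and lists were chosen with earlier results of these data known. edgeR 4.0.16 (R 4.3.3) with filterByExpr, TMM factors and its quasi-likelihood test was fitted to all genes, in 1 model of the 10 fate-map libraries and 1 of the 4 tamoxifen libraries. Calls need a Benjamini-Hochberg adjusted p under 0.05 over all genes tested. The fit was tested on simulated data. Bulk CPM, also in the summed lists, are TMM-scaled counts, and single-cell CPM are scaled to the summed counts alone. Named were the members called, the 3 smallest p per comparison, the 10 highest per kilobase and ligand-receptor pairs. DESeq2 1.42.0, RLE factors, other filters, lane, a replicate block and left-out libraries were the alternatives.

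Cells under 200 genes or over 10% mitochondrial counts and predicted doublets were removed (3, 11 and 11 doublets in the skin, day 10 and day 0 libraries). Only the skin file lists mitochondrial genes, so the second limit touched no dorsal cell. Clustering used scanpy 1.11.5 (Python 3.11.15, 2000 variable genes without the members, 30 components, 15 neighbours, Leiden resolution 0.5). Ratios carry exact 95% Poisson intervals. A gene that drives the fate map is not reported here.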

Additional observations from a re-analysis of the deposited data

Results flagged for a closer look

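The difference between marked and unmarked cells differed between Gata3flox and intact mice for 2 members, by the interaction test of edgeR with Benjamini-Hochberg adjustment. For Cd40lg the interaction was −7.41 on the log2 scale (adjusted p = 0.00856): the effect was −4.04 ± 0.60 (SE) in Gata3flox mice and 3.37 ± 0.70 (SE) in intact mice, and all 3 fm_pos_Gata3flox libraries lay below all others. For Tnfrsf12a it was 1.6 (adjusted p = 0.0399): the effect was −0.38 ± 0.19 (SE) in Gata3flox mice and −1.98 ± 0.24 (SE) in intact mice, where fm_neg also held the fibroblast list at 7340 to 9173 CPM. The parts of T cell and fibroblast transcripts in these values were not tested.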

How the results depend on the processing

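Of 271 values of named members under alternatives, 172 kept their direction and side of the threshold, 88 kept the direction and lost the call, 11 gained a call and none reversed. With DESeq2 the members called were 8 in fm_pos against fm_neg (5 by edgeR), 7 in the Gata3flox pair (4), 7 in fm_pos_Gata3flox against fm_pos (1), 9 in fm_neg_Gata3flox against fm_neg (4), 6 in the interaction (2) and 2 in the tamoxifen comparison (0). DESeq2 also called more of all 17456 genes, with 607 higher and 1601 lower in fm_pos against fm_neg (109 and 369 by edgeR). The Gata3flox pair had 179 and 240 (22 and 41), and fm_pos_Gata3flox against fm_pos 1387 and 532 (193 and 73). In fm_neg_Gata3flox against fm_neg there were 788 and 796 (104 and 129), and in the interaction 889 and 269 (144 and 32). With lane in the fit the members called in these first 5 comparisons were 2, 0, 1, 2 and 1. Of all genes, 40 higher and 210 lower, 4 and 6, 94 and 39, 19 and 58, and 67 and 6 were called. Without the filter on low counts the members called were 6 in fm_pos_Gata3flox against fm_pos, 7 in fm_neg_Gata3flox against fm_neg and 6 in the interaction. Of all 27320 genes then tested, 678 higher and 296 lower, 389 and 504, and 617 and 156 were called in that order. A mean of at least 5 CPM gave 2 members in fm_pos_Gata3flox against fm_pos, RLE factors gave 2 in fm_neg_Gata3flox against fm_neg, and the libraries of both groups alone gave 0 in fm_pos against fm_neg and 0 in fm_pos_Gata3flox against fm_pos. In the same order all genes gave 225 higher and 129 lower of 9955, 53 and 131 of 17456, 0 and 29 of 13638, and 0 and 0 of 15443. The cause of these shifts was not tested.

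Whether replicate numbers pair the samples was not settled, and the main fit did not block on them. In Gata3flox mice, correlations of deviations were 0.097, 0.017 and 0.04 for the same number and −0.063 to 0.024 for other numbers. Not every Gata3flox library correlated best with its own number. With 2 libraries per group the deviations mirror each other, so −0.004 in intact and 0.011 in tamoxifen mice cannot decide. With the replicate block the members called were 1 in fm_pos against fm_neg, 3 in the Gata3flox pair, 1 in fm_pos_Gata3flox against fm_pos, 2 in fm_neg_Gata3flox against fm_neg, and 0 in the interaction and the tamoxifen comparison. In that order all genes gave 12 higher and 114 lower, 10 and 21, 76 and 55, 20 and 63, 25 and 1, and 0 and 0.

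Leaving out each library in turn gave 2 to 6 members in fm_pos against fm_neg, 0 to 1 in the Gata3flox pair, 1 to 2 in fm_pos_Gata3flox against fm_pos, 0 to 2 in fm_neg_Gata3flox against fm_neg, 1 to 2 in the interaction and 0 in the tamoxifen comparison. A group left with 1 library was assumed to vary like the others. Groups of 2 limit every comparison, and members under a few CPM rest on few counts. Between the dorsal days, 2 or 3 members passed the 2-fold limit under all alternatives run.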
